A study of Mus musculus with 5 samples.

Results

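The genes described here are 7 neuropeptide genes of sensory neurons: Tac1, Calca, Calcb, Adcyap1, Gal, Nmb and Cartpt. They were chosen by name, as peptide genes linked with peptidergic pain-sensing neurons, and each was matched to the row of the count matrix that carries its symbol. All 7 were found among 17267 rows with the name of a mouse gene. The study captured single cells of the lumbar dorsal root ganglion (DRG), the cluster of sensory nerve cell bodies beside the spinal cord, in droplets with the Chromium 3′ kit, which tags every captured RNA molecule with its own short barcode (UMI). All cells came from 5 untreated wild-type C57BL/6 mice of both sexes aged 18 weeks, so there was 1 condition, and the comparisons are between cell types within the same mice. The deposited annotation gives each of 3352 cells 1 of 14 types: 5 peptidergic (PEP), 3 non-peptidergic (NP) and 3 neurofilament (NF) neuron types, Th neurons, satellite glia and endothelial cells. The cell names hold 5 library identifiers, numbered 1 to 5 here, and no label ties a library to a sample or a sex.

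Neuropeptides are made as long precursors that are cut by convertases, often amidated at the C-terminus, stored in dense-core vesicles and released from sensory endings in tissue and in the spinal cord. Tac1 encodes the tachykinins substance P and neurokinin A, which signal through Tacr1 and related receptors. Calca and Calcb encode alpha-CGRP and beta-CGRP, vasodilators that act on a receptor built from Calcrl and Ramp1, and the Calca gene can also be spliced to calcitonin, which gene counts do not tell apart from alpha-CGRP. Adcyap1 encodes PACAP, Gal galanin, Nmb the itch-related peptide neuromedin B, and Cartpt the CART peptides. Peptidergic neurons are classically those with substance P and CGRP, while non-peptidergic neurons are known by lectin binding and receptors such as Mrgprd.

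The stretches of coding sequence that carry the mature peptides are shown because they tell the members apart, above all both CGRP genes. They were read from the GENCODE transcripts of the mm10 build (GRCm38) and are written 5′ to 3′ on the strand of the gene. In Tac1, Adcyap1, Gal and Nmb the capitals mark the glycine codon and both basic codons that follow the peptide and serve as its amidation and cleavage signal. In Calca and Calcb the capitals mark the bases at which both genes differ. No such stretch was read for Cartpt.
Tac1, substance P: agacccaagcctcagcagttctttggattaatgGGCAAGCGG
Calca, alpha-CGRP: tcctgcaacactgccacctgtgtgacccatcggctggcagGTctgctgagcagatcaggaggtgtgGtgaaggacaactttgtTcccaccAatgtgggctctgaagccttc
Calcb, beta-CGRP: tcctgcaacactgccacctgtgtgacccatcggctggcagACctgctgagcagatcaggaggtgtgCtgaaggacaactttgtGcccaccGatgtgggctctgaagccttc
Adcyap1, PACAP38: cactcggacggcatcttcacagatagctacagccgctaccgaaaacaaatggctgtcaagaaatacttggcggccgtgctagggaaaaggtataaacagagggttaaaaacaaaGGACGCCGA
Gal, galanin: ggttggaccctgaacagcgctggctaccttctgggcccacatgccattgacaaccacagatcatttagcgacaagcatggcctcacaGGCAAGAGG
Nmb, neuromedin B: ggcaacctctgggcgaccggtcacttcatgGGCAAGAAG

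Without the capitals of the amidation signal, the substance P stretch lies at chr6:7556732-7556764 on the plus strand, in exon 3 of 6. Alpha-CGRP lies at chr7:114632470-114632580 on the minus strand and beta-CGRP at chr7:114721994-114722104 on the plus strand, each in exon 4 of 5. The PACAP38 stretch is in exon 5 of 5, at chr17:93203990-93204103 on the plus strand. Galanin spans an intron between exons 3 and 4, at chr19:3411601-3413334 on the minus strand, and neuromedin B one between exons 1 and 2, at chr7:80904296-80904839 on the minus strand. Both CGRP stretches are 111 bases long and differ at 5 bases, which change 3 of 37 residues. Reads of 55 bases can still be assigned to 1 of both genes almost everywhere: 7 of the 1678 windows of that length in Calca transcripts also occur in Calcb, which has 1260 windows, and the longest shared run is 61 bases. The protein-coding gene Sec11a, on the same strand, overlaps the Nmb gene. Sec11a had means of 19.9 to 111 UMIs per 1000000 over the types. In satellite glia it had 111, against 28.9 for Nmb. In PEP3_Trpm8, NF_Pvalb, NF2_Ntrk2.Necab2 and endothelial cells its mean was also above that of Nmb, and in the other types below. The part of Sec11a in the Nmb counts was not tested.

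The 5 libraries held 164 to 1370 cells and 13050375 to 88886919 UMIs, with a median of 52499.5 to 72840 UMIs per cell. Median depth differed by type, from 16889 UMIs per cell in endothelial cells and 17729 in satellite glia to 105150 in NP_Mrgprd. Cell names of 2 libraries shared a barcode in 7 cases (14 cells), and 188 cells had a mitochondrial share above 10%. UMIs were summed per type and library into 70 sums of 3 to 463 cells, of which 9 held fewer than 10 cells, 6 of them from library 1. Levels are given as UMIs per 1000000 UMIs (CPM) of these sums. In a 3′ assay each transcript yields 1 tag, so CPM of different genes are compared without a correction for length. The marker in the name of PEP3_Trpm8 followed the label: Trpm8, the cold receptor, had 44.0 ± 22.6 CPM there and a mean of at most 1.03 in every other type.

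Together the 7 genes took 2.18% ± 0.419 of all UMIs in PEP1_S100a11.Tagln2 (mean ± SD, n = 5 libraries), 1.97% ± 0.252 in PEP1_Slc7a3.Sstr2 and 1.86% ± 0.346 in PEP1_Dcn. The next types were NP_Mrgpra3 at 0.991% ± 0.177, PEP2_Htr3a.Sema5a at 0.836% ± 0.157 and PEP3_Trpm8 at 0.633% ± 0.0758. The PEP1 types thus stood above all other types, while one type labelled non-peptidergic lay beside PEP2 and PEP3. NP_Mrgprd had 0.291% ± 0.0147. Satellite glia had 0.0274% ± 0.0146, and the lowest type was NF2_Ntrk2.Necab2 at 0.0128% ± 0.00487. Most UMIs of Gal (98.6%), Adcyap1 (94.3%), Cartpt (86.7%) and Tac1 (85.8%) were in PEP cells, against 71.7% for Calca, 24.2% for Calcb and 21.7% for Nmb. These last shares depend on the 900 NP_Mrgprd cells, the most numerous and deepest type.

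**Figure D1:**
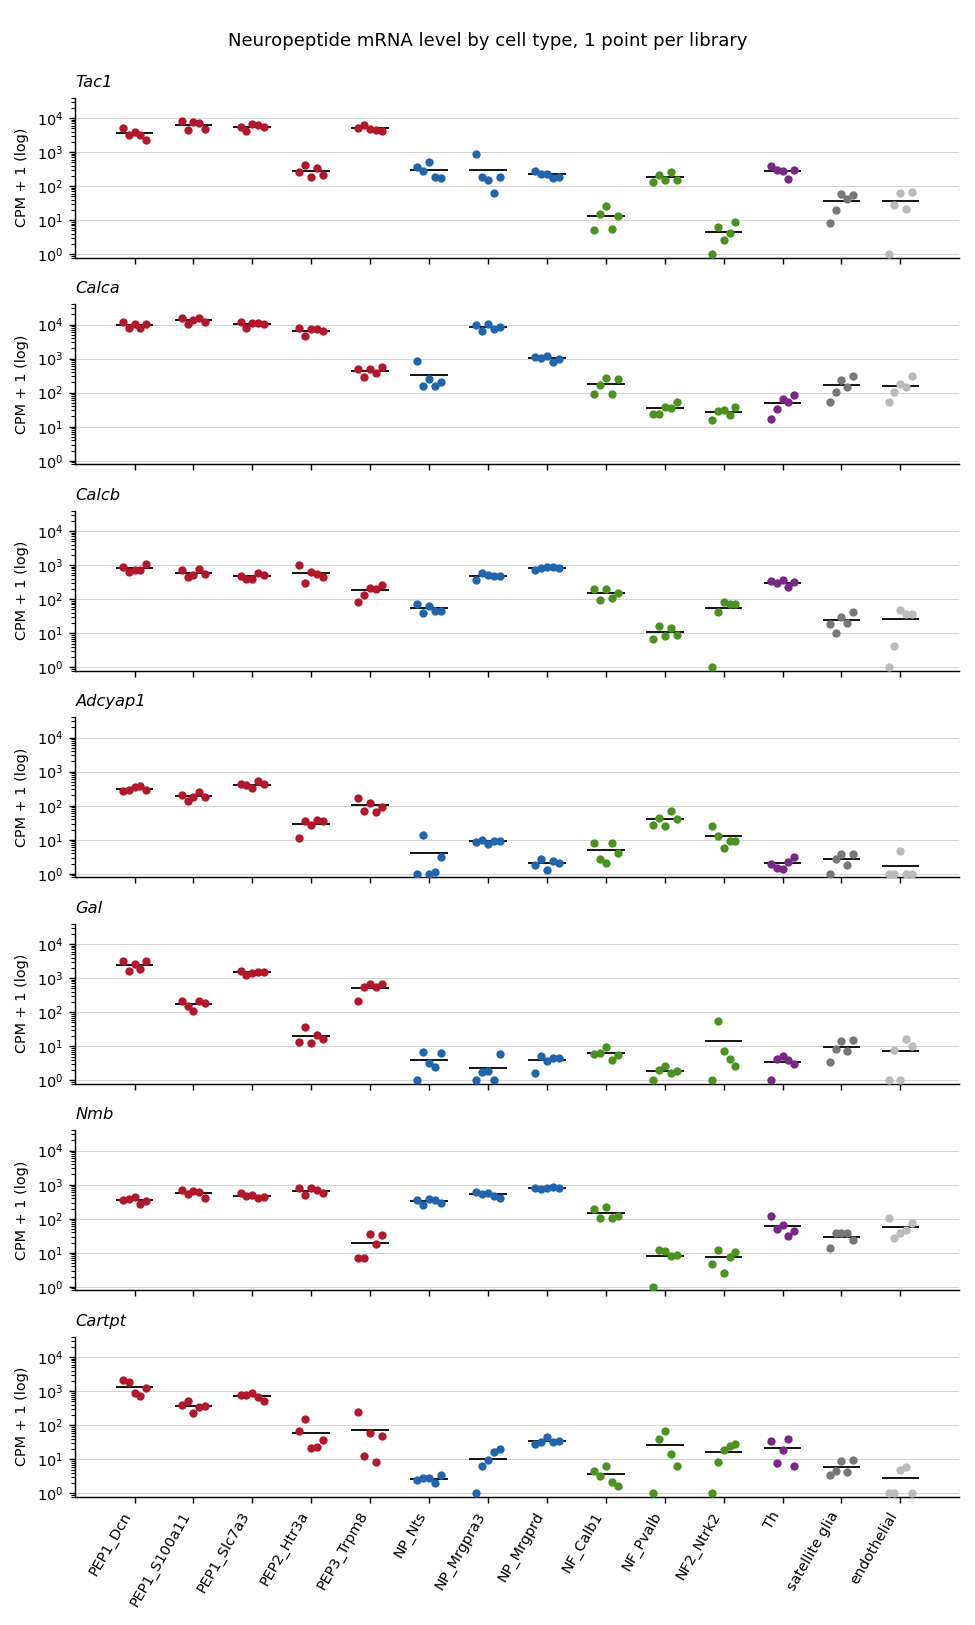
Level of each gene in each type as CPM + 1 on a log axis, with 1 point per library and a line at the mean of 5 libraries (red PEP, blue NP, green NF, purple Th, grey glia and endothelial cells). Tac1 and Gal are far higher in a few PEP types than in the other types, while Nmb and Calcb are highest in NP_Mrgprd, with Nmb low in PEP3 and Calcb low in NP_Nts.

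Tac1, the substance P gene, was high in 4 of the 5 PEP types and not in PEP2. In PEP1_S100a11.Tagln2, libraries 1 to 5 had 8132, 4603, 7496, 7012 and 4927 CPM, a mean of 6434 ± 1579 (SD, n = 5). In PEP3_Trpm8, the cold-sensing type, the values were 5095, 6485, 4769, 4347 and 4207 CPM. In PEP2_Htr3a.Sema5a they were 261, 423, 183, 337 and 210 CPM. All libraries of PEP2 lay below all libraries of the other PEP types. PEP1_Slc7a3.Sstr2 had 5622 ± 991 and PEP1_Dcn 3546 ± 1129.8 CPM. The 4 high types overlapped between neighbours in the order, and in none of these neighbour pairs was the same type higher in 5 of 5 libraries. PEP1_Dcn is no neighbour of the other PEP1 types in this order, and had 5220, 3092, 4039, 3127 and 2251 CPM. It was below both other PEP1 types in 5 of 5 libraries, with overlapping ranges. The largest step followed PEP1_Dcn, the lowest of the 4 high types, which exceeded NP_Nts in 5 of 5 libraries without overlap.

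A second tier of Tac1 held NP_Nts (302 ± 136 CPM), NP_Mrgpra3 (291 ± 329), Th (287 ± 83.3), PEP2 (283 ± 98.0), NP_Mrgprd (221 ± 43.2) and NF_Pvalb (180 ± 53.4), whose ranges overlapped between all neighbours. The value of NP_Mrgpra3 rested on library 1, where 4 cells gave 873 CPM, against 62.1 to 187 in the other libraries. Satellite glia had 35.7 ± 21.8 CPM, and NF_Calb1 and NF2_Ntrk2.Necab2 lay below them at 12.2 ± 8.37 and 3.66 ± 3.13. Similar sums hid different spreads over cells. In PEP2 the median cell had 1 Tac1 UMI while the highest had 382, and the top 10% of the cells held 84.7% of the Tac1 UMIs. In NP_Mrgprd the median was 13 UMIs, with a UMI in 95.2% of cells.

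Calca was the most abundant of the 7 genes. PEP1_S100a11.Tagln2 had 15989, 10236, 13596, 15701 and 11655 CPM in libraries 1 to 5, and PEP1_Slc7a3.Sstr2 12063, 8025, 10833, 11039 and 10451. The former was higher in 5 of 5 libraries, although the ranges overlapped. PEP1_Dcn followed with 9700.1 ± 1619 CPM, NP_Mrgpra3 with 8599 ± 1625 and PEP2_Htr3a.Sema5a with 6715 ± 1350.01 (SD, n = 5). NP_Mrgpra3, the type named for the itch receptor Mrgpra3, thus sat among the peptidergic types for Calca, with 9811, 6470, 10512, 7651 and 8551 CPM, and as UMIs per cell it was the highest of all types, with a mean of 765 and a median of 729, against 679 and 527 in PEP1_S100a11.Tagln2.

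Below these 5 types Calca dropped without overlap to NP_Mrgprd at 1010.1 ± 141 CPM, and again to PEP3_Trpm8 at 446 ± 111. PEP3, though labelled peptidergic, therefore had less Calca than NP_Mrgprd in 5 of 5 libraries. NP_Nts had 333 ± 309 CPM, with 881 in library 1 from 10 cells and 158 to 255 in the others. In NF_Calb1 a small part of the cells carried the level of 173 ± 85.9 CPM: the highest cell had 653 UMIs, and the top 10% of cells held 86.6% of the Calca UMIs. The remaining types had levels near or below those of satellite glia. In the glia the level was 170.5 ± 104 CPM, with endothelial cells at 157 (51.5 to 314), Th at 49.7 ± 26.6, NF_Pvalb at 33.8 ± 11.6 and NF2_Ntrk2.Necab2 at 25.7 ± 8.13. The median in each of these types and in NF_Calb1 was 2 or 3 Calca UMIs per cell, at median depths from 16889 to 96530.5 UMIs, so the CPM of the shallow glia and endothelial cells came out higher for a similar count. Calca RNA free in the suspension would add such counts to cells of every type, and its part was not tested.

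Calcb was spread differently. NP_Mrgprd had 739, 843, 886, 875 and 838 CPM, a mean of 836 ± 58.1, and PEP1_Dcn 907, 609, 737, 699 and 1082, a mean of 807 ± 188. The ranges overlapped, and NP_Mrgprd was higher in 3 of 5 libraries. As UMIs per cell, without scaling to the total, NP_Mrgprd had a mean of 86.7 and PEP1_Dcn 44.3, with medians of 73 and 28. PEP1_S100a11.Tagln2 (595 ± 131), PEP2_Htr3a.Sema5a (583 ± 256), NP_Mrgpra3 (490.2 ± 77.3) and PEP1_Slc7a3.Sstr2 (477 ± 81.2) also overlapped from one to the next. Th neurons, touch-sensing C-fibres, came next at 308 ± 52.6 CPM, below PEP1_Slc7a3.Sstr2 without overlap. PEP3_Trpm8 had 181 ± 72.1, NF_Calb1 152 ± 49.4 and satellite glia 23.2 ± 12.2 CPM.

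The balance of both CGRP genes divided the types. Calca made up 95.8% ± 0.373 of Calca and Calcb UMIs in PEP1_S100a11.Tagln2, 95.6% ± 0.667 in PEP1_Slc7a3.Sstr2, 94.4% ± 1.76 in NP_Mrgpra3, 92.3% ± 1.001 in PEP1_Dcn and 92.3% ± 1.99 in PEP2_Htr3a.Sema5a (SD, n = 5). In NP_Mrgprd the share was 59.5, 54.8, 57.2, 48.0 and 53.2%, and in Th 4.57, 9.85, 14.9, 18.5 and 21.2%. NP_Mrgprd thus had close to equal counts of both genes, and Th neurons mostly Calcb, with no overlap between them or with the 5 types above. Over all libraries, satellite glia had 776 Calca and 98 Calcb UMIs (88.8% Calca), while Th neurons had 718 and 4150.

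**Figure D2:**
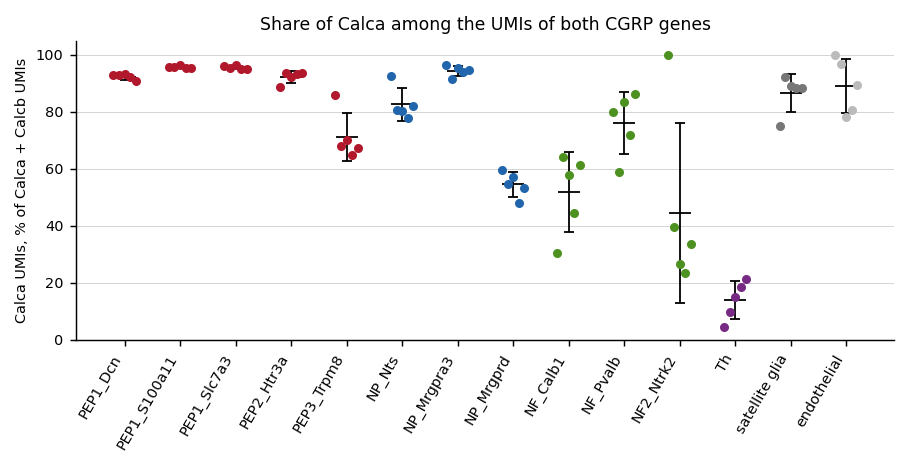
Calca UMIs as a percentage of Calca plus Calcb UMIs in each type, with 1 point per library and the mean ± SD of 5 libraries. The PEP1 types, PEP2 and NP_Mrgpra3 lie above 88%, NP_Mrgprd near 54.5% and Th at 4.57 to 21.2%, and types with few UMIs of both genes scatter widely.

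Gal, the galanin gene, split the PEP types. PEP1_Dcn had 3276, 1642, 2675, 1872 and 3106 CPM and PEP1_Slc7a3.Sstr2 1582, 1212, 1467, 1564 and 1547, without overlap and in the same direction in 5 of 5 libraries. PEP3_Trpm8 had 216, 544, 657, 545 and 665 CPM. PEP1_S100a11.Tagln2, though a PEP1 type, had 219, 147, 105.2, 217 and 192. Its values lay below the other PEP1 types in every library, and below PEP3 in all libraries but the first, where the PEP3 sum held 9 cells. PEP2_Htr3a.Sema5a had 19.2 ± 10.2 CPM, below PEP1_S100a11.Tagln2 without overlap. All other types had means of 0.841 to 12.9 CPM, against 8.72 ± 4.98 in satellite glia, so Gal was not above satellite glia in the mean of any NP type, Th or the other NF types. The highest of them, NF2_Ntrk2.Necab2, owed its mean to library 2, with 53.0 CPM from 6 cells.

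Cartpt, the CART peptide gene, followed a similar order with more spread. PEP1_Dcn had 2181, 1821, 880.1, 734 and 1247 CPM, PEP1_Slc7a3.Sstr2 776, 759, 880 (library 3), 670.1 and 512, and PEP1_S100a11.Tagln2 395, 525, 227, 332 and 372. The order of these 3 types held in 5 of 5 libraries, with almost no difference between the first and the second in library 3, and each pair of neighbours overlapped in range. PEP3_Trpm8 had 73.7 ± 97.4 and PEP2_Htr3a.Sema5a 59.9 ± 55.1 CPM, where the SD was close to or above the mean. In PEP1_Slc7a3.Sstr2 the median cell had 6 Cartpt UMIs and in PEP1_Dcn 32. NP_Mrgprd had 33.9 ± 5.67 CPM, above the 5.11 ± 2.82 of satellite glia in every library.

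Adcyap1, the PACAP gene, had its highest levels in the PEP1 types. PEP1_Slc7a3.Sstr2 had 425, 396, 321, 516 and 432 CPM, PEP1_Dcn 274, 292, 345, 385 and 290 (library 5), and PEP1_S100a11.Tagln2 202, 135, 177, 251 and 174. PEP1_Dcn exceeded PEP1_S100a11.Tagln2 without overlap, and PEP1_Slc7a3.Sstr2 exceeded PEP1_Dcn in 4 of 5 libraries. As UMIs per cell, without scaling to the total, PEP1_Slc7a3.Sstr2 and PEP1_Dcn were close to equal, with medians of 15.5 and 14. PEP3_Trpm8 had 104 ± 44.7 CPM and PEP2_Htr3a.Sema5a 28.4 ± 10.8. Outside the PEP types the highest level was in NF_Pvalb, the proprioceptor type, at 40.8 ± 18.1 CPM, against 1.65 ± 1.25 CPM in satellite glia. Cells were also thinned at random to 10000 UMIs each, to compare types at equal depth. Then 6.72% ± 10.9 of NF_Pvalb cells had at least 2 Adcyap1 UMIs, from 0 to 25% over libraries. Among satellite glia it was 0 of 249, which allows a share of up to 1.205%. Before thinning, 75.2% of NF_Pvalb cells had an Adcyap1 UMI, against 2.81% of the shallower satellite glia, so the thinned share depends on the depth. NP_Nts, NP_Mrgprd and Th had 1.04 to 3.01 CPM.

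Nmb, the neuromedin B gene, was the member least tied to the PEP label. NP_Mrgprd had 783, 765, 797, 851 and 826 CPM, PEP2_Htr3a.Sema5a 795, 503, 790, 711 and 574, and PEP1_S100a11.Tagln2 690, 549, 672, 616 and 406. NP_Mrgprd was above PEP2 in 4 of 5 libraries and above PEP1_S100a11.Tagln2 in each, without overlap. NP_Mrgpra3 (515 ± 84.0), PEP1_Slc7a3.Sstr2 (472 ± 71.5), PEP1_Dcn (362 ± 62.9) and NP_Nts (325 ± 48.6) followed in a row of overlapping ranges. PEP3_Trpm8, with 6.01, 5.87, 34.7, 16.6 and 32.1 CPM, was not above satellite glia at 28.9 ± 10.8. In NF_Calb1 the level of 146 ± 53.6 CPM came from a part of the cells: the median was 1 UMI, the highest 140, and the top 10% of cells held 66.3% of the UMIs.

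To count cells, each cell was thinned at random to 10000 UMIs, which left out no cell, and a gene was called above background where it exceeded the 95th percentile of satellite glia and had at least 2 UMIs. The resulting minimum was 6 UMIs for Calca, 3 for Tac1 and 2 for the others. Satellite glia set this minimum themselves, so their own shares are low by construction and measure no difference from neurons. By this measure Tac1 and Calca were found together in 100% of PEP1_Slc7a3.Sstr2 cells, 99.8% ± 0.526 of PEP1_S100a11.Tagln2 and 88.9% ± 9.40 of PEP1_Dcn (SD, n = 5). In PEP2_Htr3a.Sema5a, 78.4% ± 5.50 of cells had Calca without Tac1 and 14.6% ± 5.59 had both. In PEP3_Trpm8 it was the reverse, with 77.2% ± 11.4 of cells having Tac1 without Calca and 20.4% ± 10.4 having both. PEP2 and PEP3 thus each showed mainly 1 of the classical peptide pair.

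**Figure D3:**
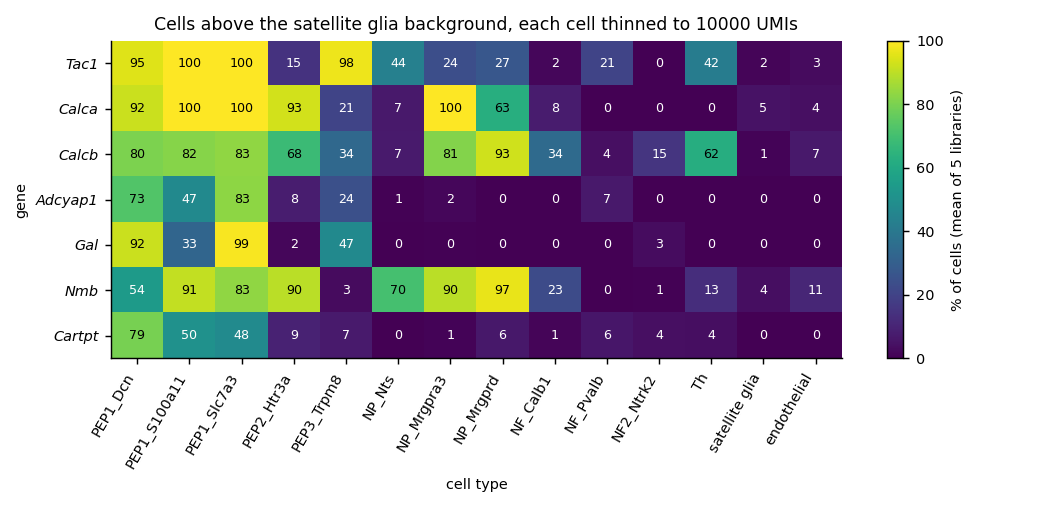
Percentage of cells above the satellite glia background for each gene (rows) and type (columns), as the mean of 5 libraries, with each cell thinned to 10000 UMIs. The PEP1 types are high for most genes, while PEP2 shows Calca, Calcb and Nmb and PEP3 mostly Tac1 and Gal.

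Galanin was above background in 98.9% ± 1.03 of PEP1_Slc7a3.Sstr2 cells and 92.1% ± 5.96 of PEP1_Dcn cells. As CPM put these types in the other order, no order is read from these shares. The share was 47.4% ± 9.90 in PEP3_Trpm8, 32.7% ± 11.2 in PEP1_S100a11.Tagln2 and 1.74% ± 2.04 in PEP2_Htr3a.Sema5a, against 0.25% ± 0.559 in satellite glia. Gal in PEP1_S100a11.Tagln2 and PEP3_Trpm8 was therefore found in a part of the cells, and the unthinned counts spread from 0 at the 10th percentile to 30 and 51.3 UMIs at the 90th. Cartpt was above background in 79.5% ± 6.50 of PEP1_Dcn cells, 50.4% ± 9.57 of PEP1_S100a11.Tagln2 and 47.8% ± 9.005 of PEP1_Slc7a3.Sstr2, and in a mean of at most 9.42% of cells in every other type. Adcyap1 was so low after thinning that 41.2% of PEP1_Slc7a3.Sstr2 cells lay within 1 UMI of the minimum, and its share there was 83.2% ± 10.2 after thinning, while 99.7% of these cells had an Adcyap1 UMI before it.

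Outside the PEP types, Calca was above background in 104 of 104 NP_Mrgpra3 cells and in 62.9% ± 4.28 of NP_Mrgprd cells. In Th neurons it was found in 0 of 232 cells, which allows a share of up to 1.29%, while Calcb was above background in 62.3% ± 8.90 of the same type. Nmb was above background in 96.5% ± 2.41 of NP_Mrgprd cells, 89.8% ± 6.66 of NP_Mrgpra3 and 70.4% ± 12.7 of NP_Nts. The share was 3.54% ± 3.79 in satellite glia, which set the background. Tac1 varied most between libraries in NP_Nts, from 25.7 to 70% of cells, and 26.8% of these cells lay within 1 UMI of the minimum. The limit from 0 cells covers counting error only.

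A PEP1_Slc7a3.Sstr2 cell had 5.96 ± 0.184 of the 7 genes above background (mean ± SD over libraries, n = 5), a PEP1_Dcn cell 5.66 ± 0.398 and a PEP1_S100a11.Tagln2 cell 5.03 ± 0.238. NP_Mrgpra3 (2.98 ± 0.191), NP_Mrgprd (2.86 ± 0.0528) and PEP2_Htr3a.Sema5a (2.85 ± 0.129) had fewer, and PEP3_Trpm8 had 2.34 ± 0.470. The number fell further to 1.29 ± 0.366 in NP_Nts and 1.22 ± 0.332 in Th. In satellite glia, which set the background, it was 0.116 ± 0.102. The shares of combinations that follow are over the cells of all libraries together. All 7 genes were found together in 33.7% of PEP1_Dcn cells, 27.5% of PEP1_Slc7a3.Sstr2 and 7.73% of PEP1_S100a11.Tagln2, and in no cell of another type. The most frequent combination was Calca, Calcb and Nmb in 3 types from the PEP and NP classes, at 42.2% of PEP2, 53.8% of NP_Mrgpra3 and 37.4% of NP_Mrgprd cells. In PEP3_Trpm8 it was Tac1 alone, at 33.9%, in NP_Nts Nmb alone, at 41.5%, and in Th Calcb alone, at 30.6%. As means over libraries these 3 shares were 37.2% ± 14.9, 34.7% ± 11.4 and 28.9% ± 9.61. Those of Calca, Calcb and Nmb were 42.1% ± 10.7 in PEP2, 51.8% ± 5.65 in NP_Mrgpra3 and 34.3% ± 5.67 in NP_Mrgprd.

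**Figure D4:**
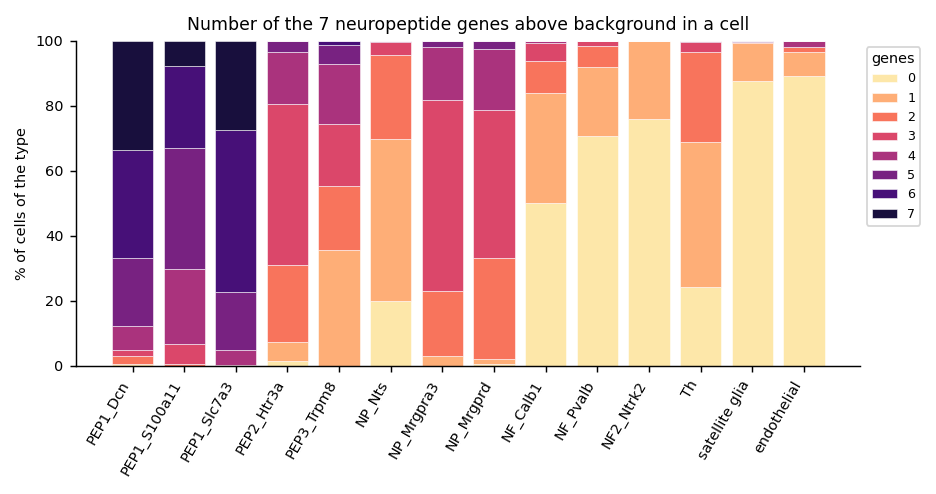
Stacked bars of the percentage of cells of each type with 0 to 7 of the genes above background, all libraries together, after thinning to 10000 UMIs. Most PEP1 cells hold 5 or more, PEP2, NP_Mrgpra3 and NP_Mrgprd cells mostly 2 to 4, and satellite glia and endothelial cells mostly 0.

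To ask how the genes differed between classes, the sums were fitted across 11886 genes with edgeR's quasi-likelihood test, and p-values were adjusted over all of them by the Benjamini-Hochberg method. A call needs an adjusted p under 0.01 and at least a 2-fold change between the means of the types on the log scale. The authors clustered these types from the same counts, so the tests give the size of a difference and are no independent evidence for it. Between the 5 PEP and the 3 NP types, 5 members were called higher, where 13.6% of all genes were, and 1 lower, where 5.57% were. The median log2 fold change was 3.34 for the members and 0.03 for all genes tested. Gal had the largest difference, at 6.86 (SE 0.25, adjusted p = 2.09e-36) and 7.84 without library 5, followed by Adcyap1 at 5.57 (SE 0.20, adjusted p = 8.58e-37) and Cartpt at 4.72 (SE 0.32, adjusted p = 5.92e-22). Tac1 differed by 3.34 (SE 0.20, adjusted p = 1.35e-24) and Calca by 1.81 (SE 0.17, adjusted p = 4.06e-15), the latter with NP_Mrgpra3 at the level of PEP types. Calcb had a log2 fold change of 0.69 (SE 0.14, adjusted p = 1.11e-05), under the 2-fold limit. Nmb was lower in PEP types, at -1.03 (SE 0.11, adjusted p = 1.79e-12), just past the limit. This call was lost at -0.94 with DESeq2, at -0.92 without TMM factors, at -0.98 without library 2 and at -0.97 without library 4. PEP3_Trpm8, with Nmb at the level of glia, enters this mean with the same weight as the other PEP types.

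Against the 3 NF types all 7 members were higher in the PEP types, where 12.9% of all genes were called higher and 11.3% lower. The log2 fold changes ran from 3.42 for Calcb (SE 0.17) to 6.94 for Tac1 (SE 0.26), with a median of 4.62 against 0.05 over all genes. Gal had 6.52 (SE 0.27), and 7.201 without library 2. For every member but Adcyap1, at least 1 NF type had a mean below that of satellite glia, so these folds also depend on the background counts in NF cells.

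Within the PEP class the members divided in different ways. PEP1 exceeded PEP2 for 4 members (7.34% of all genes higher, 11% lower): Gal by a log2 fold change of 5.47 (SE 0.36, adjusted p = 5.43e-22), Tac1 by 4.17 (SE 0.35, adjusted p = 7.33e-17), Cartpt by 3.59 (SE 0.43, adjusted p = 6.61e-11) and Adcyap1 by 3.32 (SE 0.26, adjusted p = 1.83e-18). Calca at 0.75 (SE 0.26, adjusted p = 0.0127), Nmb at -0.52 (SE 0.17, adjusted p = 0.00697) and Calcb at 0.09 (SE 0.21, adjusted p = 0.723) were not called. PEP1 exceeded PEP3 for 5 members (8.71% of all genes higher, 8.48% lower): Calca by 4.66 (SE 0.34), Nmb by 4.43 (SE 0.26), Cartpt by 3.69 (SE 0.47), Calcb by 1.72 (SE 0.24) and Adcyap1 by 1.60 (SE 0.24). Tac1, at 0.03 (SE 0.27, adjusted p = 0.957), and Gal, at 0.72 (SE 0.26, adjusted p = 0.0189), were not called. The mean over PEP1 for Gal averages 2 high types and PEP1_S100a11.Tagln2, which was below PEP3. Cartpt moved to 4.34 against PEP2 without library 2 and to 4.43 against PEP3 without library 1. Both comparisons use the same PEP1 sums, so they are not independent of each other.

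Over the 12 neuron types against satellite glia, 6 members were higher, where 24.9% of all genes were called higher and 25.8% lower. Calcb, Tac1 and Adcyap1 differed by log2 fold changes of 3.04 (SE 0.30), 3.06 (SE 0.36) and 3.11 (SE 0.63), the last at 3.69 without library 3. Gal had 1.10 (SE 0.48, adjusted p = 0.0353) and was not called, and 4 of the 12 neuron types had all libraries above those of glia. The called members were not above glia in all neuron types either. All libraries lay above those of glia in 10 neuron types for Tac1, 9 for Calcb, 8 each for Adcyap1 and Nmb, 6 for Calca and 5 for Cartpt. Without TMM factors Gal was called, at 1.41, in a fit that moved the median of all genes from 0.11 to 0.42.

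**Figure D5:**
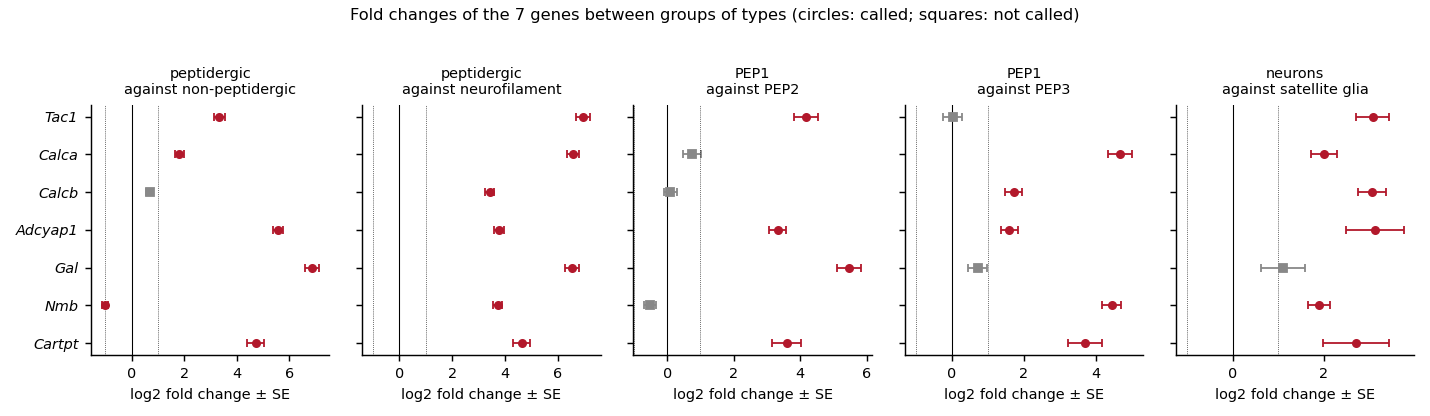
Log2 fold changes (± standard error) of the 7 genes in 5 comparisons between means of types, from the edgeR fit, with dotted lines at 2-fold. Red circles passed the adjusted p and the 2-fold limit, and grey squares did not.

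Genes that process and store peptides differed in both directions. Of 17 listed genes of peptide processing and dense-core vesicles, all tested, 7 were higher and 2 lower in PEP than in NP types, where 13.6% and 5.57% of all genes were, with a median log2 fold change of 0.38. Qpct, which forms N-terminal pyroglutamate, had 3.29 (SE 0.34), Ptprn2, a dense-core vesicle membrane protein, 2.45 (SE 0.11), and Scg3, secretogranin III, -2.29 (SE 0.08). Scg3 had 1455 ± 81.5 CPM in NP_Mrgprd and 157 to 219 in the PEP types. Qpct, with 712 UMIs in all cells, had 25.8 ± 5.39 CPM in PEP1_Dcn and 0.569 to 5.82 in the other PEP types. The NP types had 0.191 to 1.13 CPM of Qpct and satellite glia 11.6 ± 6.04. Against NF types, 4 of the 17 were higher and 3 lower, where 12.9% and 11.3% of all genes were, with a median of -0.22. Scg2, secretogranin II, differed by 4.08 (SE 0.17) and Pam, the enzyme that amidates peptides at the glycine marked above, by 1.88 (SE 0.13). Cadps2, a priming factor of dense-core vesicles, was lower at -4.09 (SE 0.33), but uneven over the NF types. It had 277 ± 80.0 CPM in NF2_Ntrk2.Necab2, 27.8 ± 12.8 in NF_Calb1 and 3.82 ± 2.43 in NF_Pvalb. PEP1_Dcn had 9.77 ± 3.94 and the other PEP types 0.404 to 2.48 CPM. PEP1 exceeded PEP2 for 1 of the 17 and was lower for 3 (7.34% and 11% of all genes), and exceeded PEP3 for 3 and was lower for 2 (8.71% and 8.48%), shares not far from those over all genes. Neurons exceeded glia for 11 and were lower for 1 (24.9% and 25.8%).

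Receptors of these peptides had low counts. Of 13 listed receptor genes 9 had a row in the matrix and 5 were tested. The highest were the CGRP and adrenomedullin receptor parts Ramp2 (161 ± 45.0 CPM), Calcrl (57.6 ± 11.2) and Ramp3 (42.3 ± 34.6), each in endothelial cells. Ramp2 was nearly as high in satellite glia, at 146 ± 43.2 CPM. In neurons the highest was Galr1, a galanin receptor, at 15.5 ± 3.17 CPM in PEP1_Dcn, the type with the most Gal. Calcrl followed at 10.7 ± 1.98 CPM in PEP1_S100a11.Tagln2, Ramp3 at 10.6 ± 6.79 in NF_Calb1 and Ramp1 at 10.1 ± 8.21 in PEP1_Dcn. Adcyap1r1, the PACAP receptor, was highest in NF_Pvalb, at 4.16 ± 1.87 CPM, and Tacr1, the substance P receptor, had 21 UMIs in all cells. Ramp1 and Ramp3 were called higher in PEP than in NP types (13.6% of all genes) and Ramp1 higher than in NF types (12.9%). With 5 genes tested, these and the following counts are too few to read a difference from the shares over all genes. No fold is given, since some types held no UMI of these genes. PEP1 was higher than PEP2 for 2 of the 5 (7.34% of all genes). Against PEP3, PEP1 was higher for 2 and lower for 2 (8.71% and 8.48%), and neurons were lower than glia for 1 (25.8%).

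Galanin is also known to be induced in sensory neurons by axon damage, which the dissociation of a ganglion entails. Of 8 listed axon injury genes, 6 were tested. Npy and Vip, with 108 and 7 UMIs in all cells, were not tested. Sprr1a, with 193 UMIs, was tested and not called in any comparison. Atf3, a transcription factor induced by injury, was present in every type, at means from 62.3 CPM in NP_Mrgprd to 369 in NP_Nts. In the types highest in Gal, PEP1_Dcn and PEP1_Slc7a3.Sstr2, Atf3 had 212 and 336 CPM, against 277 in satellite glia. The log2 fold change of Atf3 between PEP and NP types, 0.72 (SE 0.12, adjusted p = 4.4e-07), was not called. Called higher in PEP than in NP types were Gap43, a growth cone protein, at 2.38 (SE 0.18), and Sox11, a transcription factor of regrowing axons, at 1.45 (SE 0.17). Against NF types these were Gap43 at 4.87 (SE 0.23) and Flrt3, an adhesion protein, at 1.38 (SE 0.18). None was lower in either comparison. Over all genes, 13.6% were higher and 5.57% lower against NP types, and 12.9% and 11.3% against NF types. None lower among 6 genes is near these lower shares. PEP1 exceeded PEP2 for 3 of the 6 (7.34% of all genes), exceeded PEP3 for 1 and was lower for 1 (8.71% and 8.48%). Neurons exceeded glia for 2 and were lower for 2, near the shares over all genes of 24.9% and 25.8%. The part of the dissociation in the peptide levels was not tested.

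The patterns of the members over types were compared with those of 11124 genes that reached 10 CPM in at least 1 type, by Pearson's r of log2(CPM + 1) over the 14 types. The types share libraries and differ in depth, so r is a description. Among the genes most like Calca were Lcorl (r = 0.92) and Polr1d (0.91), and Tac1 was most like 6330403K07Rik (0.91), Nudt14 (0.89) and Hdgfrp3 (0.89). For Calcb these were Prdm8 (0.92), Cnih2 (0.91) and Ccdc40 (0.90), and for Adcyap1 Zdhhc22 (0.93), Stmn4 (0.90) and Pnmal1 (0.90). Gal was most like Kcnmb2 (0.96), Rxrg (0.91) and Ankrd2 (0.91). Nmb was most like Dkk3 (0.94), Atp8a1 (0.92) and Scn10a (0.92), the sodium channel of nociceptors, and Cartpt most like Syt16 (0.93), Chrnb3 (0.90) and Ctcflos (0.89). Among the members, Adcyap1, Gal and Cartpt were most like each other, with r of 0.84 to 0.86, and Adcyap1 and Nmb least alike, with r of 0.14.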

How the data were processed

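Single cells of lumbar DRG from 5 wild-type mice were measured. Per the labels and the study's methods, the authors aligned reads to mm10 with Cell Ranger and the UCSC gene model and deposited raw UMI counts per gene and cell, with no normalization. They filtered and clustered cells with Seurat and deposited 1 type name per cell. They stated a mitochondrial limit of 10%, which 188 deposited cells exceed by the share used here. This share counts 37 mitochondrial rows, with ribosomal and transfer RNA genes, and the study does not list the rows it counted. The name NF_Ca1b1 was read as NF_Calb1. Rows of no mouse gene (4) were left out. The number of columns of other samples was 0. No doublet caller was run. The study limited the loading of each lane to keep doublets few. The members and lists were chosen with earlier results of these data known.

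Counts were summed per type and library as deposited, without mapping libraries to samples, in Python 3.11.15 with numpy 2.4.6. The test on the sums was made in R 4.3.3 by edgeR 4.0.16 (filterByExpr, TMM, quasi-likelihood test, 1 coefficient per type), which was checked on simulated counts with known fold changes. DESeq2 1.42.0, fits without TMM or filter, sums of at least 10 cells, cells up to 10% mitochondrial UMIs, a library block and leaving out each library were alternatives. Each library was taken as 1 mouse, though no label ties a library to an animal. Cells of each library fall into all types, so sums of 1 library are paired. Their deviations from the type means correlated at 0.109 on average, from -0.034 to 0.451 over 455 pairs, against -0.026 between libraries. Shares were also made with thinning to 5000 and 20000 UMIs and with the 99th percentile of glia. Apart from the flags by Dixon's ratio below, no other statistic was tested, as an exact sign-flip test over 5 libraries cannot go below 0.0625. The named genes are all members, the 3 called list genes with the largest absolute fold change against NP or NF types, receptors by level, and the 3 most alike genes per member, of which 1 gene is not reported here. Atf3, Sprr1a, Npy, Vip, Sec11a and the levels of Scg3, Qpct and Cadps2 were named after their values were seen. Coordinates and sequences come from GENCODE vM21 (GRCm38), which is the build of the counts but not their gene model.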

Additional observations from a re-analysis of the deposited data

Results flagged for a closer look

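Each member's CPM in each of the 14 types was examined for a library far from the other 4 by Dixon's ratio, above its 95% critical value of 0.71 for 5 values. Of 98 groups, 8 held such a library. The nominal rate of 1 in 20 groups need not hold here, since the sums held 3 to 463 cells and some levels were near 0. No excess over chance is read from the 8. Library 1, the smallest, was the far one in 4 of them, and library 4 in 0.

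In NP_Mrgpra3, Tac1 was highest in library 1, at 873 CPM (446 UMIs in 4 cells), against 187 in the next. In NP_Nts, Calca was highest in library 1, at 881 CPM (603 UMIs in 10 cells), against 255. In PEP3_Trpm8, 9 cells of library 1 gave the lowest Gal, at 216 CPM against 544 in the next, and the highest Cartpt, at 243 CPM against 58.1. In NF2_Ntrk2.Necab2, Gal was highest in library 2, at 53.0 CPM (49 UMIs in 6 cells) against 6.50, and the highest count of Gal in a single cell of this type was 49 UMIs. In NP_Nts, Adcyap1 was highest in library 2, at 12.8 CPM (27 UMIs) against 2.11, with 24 UMIs in a single cell of this type. In NP_Mrgpra3, Gal was highest in library 5, at 4.78 CPM (19 UMIs) against 0.836. In endothelial cells, Adcyap1 was highest in library 3, at 3.69 CPM from 1 UMI, against 0 in the others.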

How the results depend on the processing

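Of 385 alternative values of the members' 35 log2 fold changes, 380 kept their call, 4 lost the call and 1 gained it. No called value changed direction. Tac1 in PEP1 against PEP3, which was not called, changed sign in some alternatives, to -0.006 with sums of at least 10 cells. Some values changed in size by over 1.5 times. Gal against NF types was 7.30 with sums of at least 10 cells and 7.32 without cells above 10% mitochondrial UMIs. Cartpt in PEP1 against PEP3 was 4.47 with sums of at least 10 cells. The 4 were Nmb between PEP and NP types, at -0.94 (DESeq2), -0.92 (no TMM factors) and -0.98 and -0.97 without library 2 or 4, so that 0 members were called lower there. The 1 gained was Gal between neurons and glia without TMM factors, at 1.41. The difference of Tac1 between PEP1 and PEP3, not called, lay between -0.06 and 0.26 with a library left out. With the replicate block, which pairs the sums of a library, no call of a member changed, and 1618 genes were higher and 662 lower in PEP than in NP types, against 1619 and 662. The members' counts called higher were the same with each library left out, at 5, 7, 4, 5 and 6 in the order of the report.

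As UMIs per cell, the log2 ratio between the types that were first and second by CPM moved to 0.58 for Tac1, 0.75 for Calca, 0.99 for Calcb, -0.043 for Adcyap1, 1.16 for Gal and 0.64 for Nmb. On this scale NP_Mrgpra3 was first for Calca, at a mean of 765 UMIs, and second for Calcb, at 45.8. Thinned to 5000 UMIs, the share of cells above background in the highest type was 99.7% for Tac1, 73.5% for Calcb, 55.6% for Adcyap1, 93.8% for Gal, 82.6% for Nmb and 71.1% for Cartpt, and the genes per cell were 5.01 for PEP1_Dcn, 4.19 for PEP1_S100a11.Tagln2, 5.11 for PEP1_Slc7a3.Sstr2 and 2.29 for PEP2. Thinned to 20000, which kept 3016 of 3352 cells and so also changed the satellite glia that set the background, the shares were 97.0% for Calcb, 97.0% for Adcyap1 and 92.4% for Cartpt, and the genes per cell 6.21, 5.82, 6.45 and 3.37 in the same order and 2.81 in PEP3. With the 99th percentile of glia, the shares were 99.6% for Tac1, 86.2% for Calcb and 91.1% for Nmb, and the genes per cell 5.70 in PEP1_Slc7a3.Sstr2 and 2.50 in PEP2. Without thinning, an alternative chosen after seeing the data, the shares were 97.4% for Calcb, 98.6% for Adcyap1 and 95.5% for Cartpt, and the genes per cell 6.55, 6.17, 6.56, 4.04 and 2.99, for the PEP1 types in the order first given, PEP2 and PEP3. With a library left out, Nmb in NP_Mrgprd ranged from 90.2 to 97.2% and the genes per cell in PEP2 from 2.66 to 2.95. The shares apply at the stated depth and background. The cause of the differences was not tested.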
